A study of Homo sapiens with 4 samples.

Results

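The nuclear genes for mitochondrial ribosomal proteins were followed in cultured RPMI 8226 cells, which derive from a human multiple myeloma, after transfection of an antisense oligonucleotide (ASO) to CELF2. CELF2 is an RNA-binding protein that acts on splicing and mRNA stability. Genes were taken by symbol, MRPL or MRPS followed by a number and at most 1 letter from A to C, with 1 Ensembl row per symbol. This gave 78 genes of 78932 Ensembl genes in the count table. One group carried a locked nucleic acid (LNA) ASO against CELF2 at 5 nM, the other a control LNA ASO whose dose the labels do not give, and both were collected at 72 hours. Each group had 2 libraries, referred to by the numbers in their labels. The labels leave unclear whether a number marks a replicate or a different oligonucleotide, so the libraries of a pair may carry different ASOs. Separate cultures are not stated for them, and the p-values therefore reflect the spread among 4 libraries, a spread that may be technical.

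Mitochondria carry their own ribosome, which translates the few mRNAs that are encoded in mitochondrial DNA. All of these mRNAs encode subunits of the respiratory chain and the ATP synthase. The ribosomal RNAs come from mitochondrial DNA, whereas every ribosomal protein is encoded in the nucleus, made in the cytosol and imported. Some of these proteins have counterparts in the bacterial ribosome, and others are found only in mitochondria. The small subunit holds the decoding site, and the large subunit holds the peptidyl transferase centre and the exit tunnel, which faces the inner membrane.

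Most of the gene family was lower with the CELF2 ASO. Of 78 genes, 77 passed the low-count filter, 66 fell, 1 rose and 10 did not pass the test (edgeR quasi-likelihood test, Benjamini-Hochberg adjusted p under 0.05). Across all 19511 genes tested, 55.5% passed the same test in either direction, 27.9% fell and 27.5% rose. Among protein-coding genes 35.4% fell. The median log2 fold change was -0.76 over the 77 ribosomal protein genes, with quartiles at -1.07 and -0.43, and 0.04 over all genes tested. At least 2-fold lower levels were found for 22 of the 77 genes. Over all 19511 genes tested this held for 2173, and for 1550 of 12754 protein-coding genes. In 68 of the 77 genes both CELF2 ASO libraries lay below both control libraries, a pattern held by 38.4% of all genes tested. These are bulk libraries scaled to their totals, so fewer expressing cells and less of these RNAs per cell cannot be told apart.

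The summed level of the family showed the same difference in every library. It was 4602 and 4778 CPM (counts scaled to the TMM-adjusted library size) in control libraries 1 and 2, and 2756 and 2675 CPM in CELF2 ASO libraries 1 and 2. The 2 groups did not overlap, and the log2 ratio of their means was -0.79. Set against the control mean gene by gene, the median difference was -0.80 on the log2 scale in CELF2 ASO library 1 and -0.78 in library 2. CELF2 ASO library 2 was below library 1 in 50 of 77 genes, or 64.9%, against 50.4% of all genes tested, by a median of 0.05 on the log2 scale among the family.

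**Figure D1:**
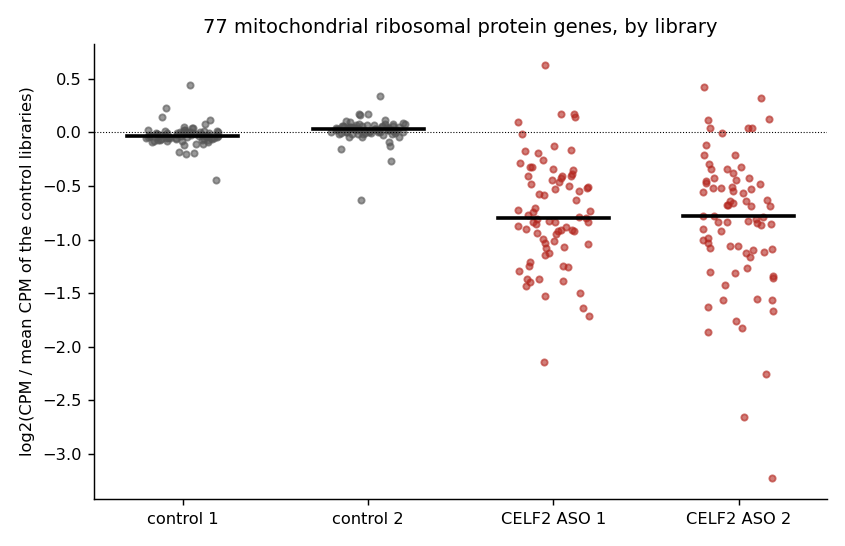
Level of each of the 77 tested genes in each library, as log2 of its CPM over the mean CPM of the control libraries, with control libraries in grey, CELF2 ASO libraries in red and a black bar at each median. The red medians lie at -0.80 and -0.78, and the control medians lie near 0.

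Library totals were between 23599190 and 29161298 counts. The biological coefficient of variation was 3.58% between the control libraries and 13.7% between the CELF2 ASO libraries. The targeted transcript, CELF2, stood at 128 and 128 CPM in the control libraries and at 56.6 and 48.8 CPM in the CELF2 ASO libraries, which is 2.43-fold lower (log2 fold change -1.28, SE 0.09, edgeR adjusted p = 2.88e-05). All 10 plasma cell genes examined were tested in the fit, with 4 lower and 4 higher, or 2 lower and 4 higher with totals alone and with an offset for GC content and length. SDC1 had a log2 fold change of -1.22 and the light chain gene IGLC2 one of 2.53, the ends of their range. Of 10 marker genes of other blood cells 6 passed the low-count filter, 1 lower and 1 higher. The monocyte gene CD14, at 29 to 67 counts, was lower and the B cell gene MS4A1, at 100 to 215 counts, was higher. The T cell gene CD8A had 21 to 34 counts, and CD3D and the monocyte gene LYZ had 0 to 2 counts. The part of other cells in the results was not tested.

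Upstream sequence is shown for 4 genes that span the range of responses: MRPL52 with the largest fall, MRPS34 with the highest control level per length, MRPS18B with no call at a high level, and MRPL30 with the only rise. Each is the 250 bases before the transcript start, read 5′ to 3′ on the gene's strand, from RefSeq on GRCh38.p14. Capitals mark exact matches, on either strand, to the letters searched. These were GCGCATGC for the nuclear respiratory factor NRF1, CCGGAAG for ETS factors such as GABPA, AAGATGGC for YY1, CACGTG for the E-box and TGATGCAA for the CHOP-ATF4 element. The start is the one RefSeq gives, and other transcripts of the gene or its neighbour can begin inside the window.
MRPL52 (chr14:22829637-22829886, plus strand): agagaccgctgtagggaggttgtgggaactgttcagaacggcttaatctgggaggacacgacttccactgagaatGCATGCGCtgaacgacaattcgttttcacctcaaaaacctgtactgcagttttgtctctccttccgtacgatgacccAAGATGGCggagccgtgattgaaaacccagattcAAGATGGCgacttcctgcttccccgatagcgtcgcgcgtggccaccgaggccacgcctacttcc
MRPS34 (chr16:1773135-1773384, minus strand): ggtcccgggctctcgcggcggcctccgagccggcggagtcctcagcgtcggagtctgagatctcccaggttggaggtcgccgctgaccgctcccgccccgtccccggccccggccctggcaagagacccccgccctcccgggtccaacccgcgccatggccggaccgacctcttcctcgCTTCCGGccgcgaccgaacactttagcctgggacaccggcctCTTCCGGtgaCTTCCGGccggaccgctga
MRPS18B (chr6:30617590-30617839, plus strand): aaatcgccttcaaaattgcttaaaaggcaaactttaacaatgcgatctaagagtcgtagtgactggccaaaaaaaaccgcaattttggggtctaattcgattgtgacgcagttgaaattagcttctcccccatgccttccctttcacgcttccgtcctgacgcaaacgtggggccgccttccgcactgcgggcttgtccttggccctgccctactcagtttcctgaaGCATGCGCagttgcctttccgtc
MRPL30 (chr2:99180934-99181183, plus strand): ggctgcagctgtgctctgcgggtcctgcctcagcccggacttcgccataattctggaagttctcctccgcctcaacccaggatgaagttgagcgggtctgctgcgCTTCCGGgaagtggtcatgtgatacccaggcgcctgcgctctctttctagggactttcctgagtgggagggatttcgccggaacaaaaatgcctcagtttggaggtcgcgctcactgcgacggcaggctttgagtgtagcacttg

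The MRPL52 window held 1 NRF1 match and 2 YY1 matches, and the MRPS34 window held 3 ETS matches. MRPS18B had 1 NRF1 match and MRPL30 had 1 ETS match. Not in capitals are an ETS match of MRPL52 that begins 5 bases before the start and runs past it, and a YY1 match of MRPS18B at base 24 after the start. Windows running on to 50 bases after the start were searched for the 69 genes with an entry, and MRPL10, MRPL13, MRPL15, MRPL2, MRPL21, MRPL23, MRPL35, MRPS28 and MRPS36 had none. The YY1 letters were in 20 of the 69 windows, or 29%, against 5.37% of the windows of tested protein-coding genes and 2.89% of all 35116 windows. The ETS letters were in 29 windows, or 42.0%, against 19.3% and 10.3%. The NRF1 letters were in 6 windows, or 8.7%, against 5.61% and 3.05%. For the E-box there were 7 windows, or 10.1%, against 9.93% and 7.26%. No window of the family held the CHOP-ATF4 letters, which were in 0.522% of the windows of tested protein-coding genes and 0.866% of all windows, so 0 of 69 is near the background.

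Genes with and without a match had close medians. Median log2 fold changes were -0.80 with and -0.74 without the YY1 letters. For ETS and for NRF1 they were -0.72 with and -0.76 without. With the E-box the median was -0.68, and without it -0.76. A match is a description of the letters and no site of binding.

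Among large subunit proteins, 45 of the 50 tested genes fell and 1 rose, with a median log2 fold change of -0.78. Their summed level was 2878 and 2970 CPM in the control libraries and 1647 and 1613 CPM with the CELF2 ASO. MRPL52, a protein found only in mitochondrial ribosomes (chromosome 14, 22829879 to 22835037), was 43.2 and 42.9 CPM in the control libraries and 9.74 and 9.0 CPM with the CELF2 ASO. The pairs lay far apart, and the level was 4.59-fold lower (log2 fold change -2.20, SE 0.10, edgeR adjusted p = 6.91e-06). MRPL4, the counterpart of a bacterial protein that reaches the exit tunnel (chromosome 19, 10251901 to 10260045), was 183 and 181 CPM in the controls and 58.6 and 53.8 CPM with the CELF2 ASO. It was 3.24-fold lower at a much higher level (log2 fold change -1.70, SE 0.08, edgeR adjusted p = 7.18e-06). MRPL18, a protein of the central protuberance, was 122 and 119 CPM in the controls and 50.4 and 48.7 CPM with the CELF2 ASO, a 2.43-fold fall (edgeR adjusted p = 1.31e-05).

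Conserved proteins of this subunit gave further large falls. MRPL23, at the exit tunnel, was 14.6 and 18.5 CPM in the controls and 5.05 and 5.61 CPM with the CELF2 ASO, or 3.11-fold lower (edgeR adjusted p = 0.000117). MRPL55 was 44.0 and 49.5 CPM in the controls and 17.3 and 12.9 CPM with the CELF2 ASO, or 3.08-fold lower (edgeR adjusted p = 7.9e-05). For both genes the spread within a pair was small beside the gap between the groups. MRPL47 was 69.6 and 67.1 CPM in the controls and 26.1 and 23.3 CPM with the CELF2 ASO, 2.76-fold lower (edgeR adjusted p = 1.55e-05).

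The stalk that recruits translation factors to the large subunit is built from MRPL10, MRPL11, MRPL12, MRPL53 and MRPL54. Of these, 4 were tested and all 4 fell, with log2 fold changes from -2.09 to -0.31. MRPL11, at the stalk base, was 121 and 124 CPM in the controls and 46.7 and 41.5 CPM with the CELF2 ASO, or 2.77-fold lower (log2 fold change -1.47, SE 0.08, edgeR adjusted p = 1.35e-05). MRPL12, the repeated stalk protein, had 105 and 151 counts in the controls and 49 and 13 counts with the CELF2 ASO, or 4.25-fold lower (log2 fold change -2.09, SE 0.51, edgeR adjusted p = 0.0158). Its CELF2 ASO libraries disagreed more than those of the other stalk genes, and the log2 fold change was -3.19 without CELF2 ASO library 1 and -1.52 without library 2. The table gave it 318 counts in all, and 68.2% of its exon bases were shared with another gene on the same strand. With a replicate block its adjusted p was 0.0595 (edgeR).

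MRPL10 anchors the stalk. It was 71.6 and 74.3 CPM in the controls and 55.0 and 63.1 CPM with the CELF2 ASO, or 1.24-fold lower (log2 fold change -0.31, SE 0.09, edgeR adjusted p = 0.0206). Its call was lost without control library 1 (edgeR adjusted p = 0.0595), without control library 2 (0.124) and with scaling by totals alone (0.0789). MRPL54 was 39.0 and 40.6 CPM in the controls and 29.2 and 30.6 CPM with the CELF2 ASO, 1.33-fold lower (log2 fold change -0.41, SE 0.08, edgeR adjusted p = 0.00448), and the adjusted p was 0.0549 without control library 2 and 0.162 with an offset for GC content and length. MRPL53 had 0 counts in all 4 libraries and was the only gene of the family left out by the filter. It shared 45.2% of its exon bases with CCDC142, and how reads over shared bases were counted is not given in the sources used here.

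The 5 genes of the central protuberance all fell, and their median log2 fold change was -0.94. With an offset for GC content and length 4 fell and the median was -0.58, and 4 fell with DESeq2 and with totals alone. MRPL38, with 117 counts in all, lost its call with DESeq2 and with that offset. Of 7 genes listed for the exit tunnel 5 fell, with a median of -0.42, and MRPL4 was not on that list. Within that set MRPL23 had a log2 fold change of -1.64 and MRPL45, which sits at the tunnel exit near the membrane, one of 0.14 (SE 0.08, edgeR adjusted p = 0.154). MRPL45 was 46.0 and 49.3 CPM in the controls and 53.5 and 51.6 CPM with the CELF2 ASO. With scaling by totals alone it passed the test as higher (log2 fold change 0.26, edgeR adjusted p = 0.0352). Without CELF2 ASO library 2 its log2 fold change was 0.15. MRPL44, also near the exit, had a log2 fold change of -0.31 (SE 0.15, edgeR adjusted p = 0.116), and -0.56 without CELF2 ASO library 2 (edgeR adjusted p = 4.7e-06).

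MRPL30 was the only gene of the family that rose. This conserved large subunit protein (chromosome 2, 99181079 to 99197626) was 18.6 and 19.1 CPM in the controls and 29.2 and 25.3 CPM with the CELF2 ASO. The groups did not overlap, and the level was 1.44-fold higher (log2 fold change 0.53, SE 0.11, edgeR adjusted p = 0.00467). Other annotated genes on the same strand, AC079447.1 and AC092587.1, shared 19.5% and 13.1% of the exon bases of MRPL30.

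Among small subunit proteins 20 of 26 genes fell and 0 rose, and the median log2 fold change was -0.62. Their summed level was 1716 and 1800 CPM in the control libraries and 1104 and 1058 CPM with the CELF2 ASO. MRPS34, found only in mitochondrial ribosomes (chromosome 16, 1771890 to 1773155), was 276 and 293 CPM in the controls and 110 and 80.1 CPM with the CELF2 ASO. Both CELF2 ASO libraries were far below the controls, at 2.98-fold lower (log2 fold change -1.58, SE 0.14, edgeR adjusted p = 0.000122). MRPS12, the counterpart of a bacterial decoding-site protein (chromosome 19, 38930548 to 38933162), was 70.4 and 81.8 CPM in the controls and 26.9 and 24.6 CPM with the CELF2 ASO, or 2.95-fold lower (log2 fold change -1.56, SE 0.10, edgeR adjusted p = 1.99e-05). MRPS7, MRPS9, MRPS15 and MRPS2, all with bacterial counterparts, had log2 fold changes of -1.30, -1.26, -1.08 and -1.02, and all 4 fell.

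The 6 small subunit genes without a call were MRPS6, MRPS33, MRPS14, MRPS18B, MRPS10 and MRPS17. MRPS6 had a log2 fold change of -0.99 with an SE of 0.66, at 0.715 and 0.341 CPM in the controls and 0.433 and 0.0837 CPM with the CELF2 ASO. Its log2 fold change was -2.61 without CELF2 ASO library 1 and -0.33 without library 2. The other 5 lay between -0.07 for MRPS33 and 0.25 for MRPS17. MRPS14 had a log2 fold change of -0.19 without CELF2 ASO library 2 and 0.04 without library 1. MRPS16 was at the edge of the test, with a log2 fold change of -0.20 (SE 0.07, edgeR adjusted p = 0.0467). Its adjusted p was 0.193 without control library 1, 0.345 without control library 2 and 0.0899 with a replicate block. In the large subunit MRPL1 and MRPL33 also had no call, at log2 fold changes of -0.25 and 0.07. MRPL1 had -0.32 without CELF2 ASO library 1 and -0.2 without library 2.

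The 3 genes that share the S18 name are paralogs with different places in the ribosome. MRPS18C holds the bacterial S18 place in the small subunit, MRPS18B is at another place in that subunit, and MRPS18A lies in the large subunit. MRPS18A was 19.6 and 22.2 CPM in the controls and 12.8 and 15.0 CPM with the CELF2 ASO, or 1.5-fold lower (log2 fold change -0.59, SE 0.13, edgeR adjusted p = 0.0056). MRPS18C was 7.43 and 6.31 CPM in the controls and 3.86 and 4.77 CPM with the CELF2 ASO, or 1.60-fold lower (log2 fold change -0.68, SE 0.18, edgeR adjusted p = 0.0139, and 0.0849 without control library 1). MRPS18B, the paralog with the highest level, was 192 and 201 CPM in the controls and 194 and 214 CPM with the CELF2 ASO. Its groups overlapped, and its log2 fold change was 0.05 (SE 0.08, edgeR adjusted p = 0.591). Without CELF2 ASO library 1 the log2 fold change was 0.13, and without library 2 it was -0.03. MRPS18A and MRPS18C share 47.0% and 40.2% of their exon bases with a gene on the opposite strand.

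**Figure D2:**
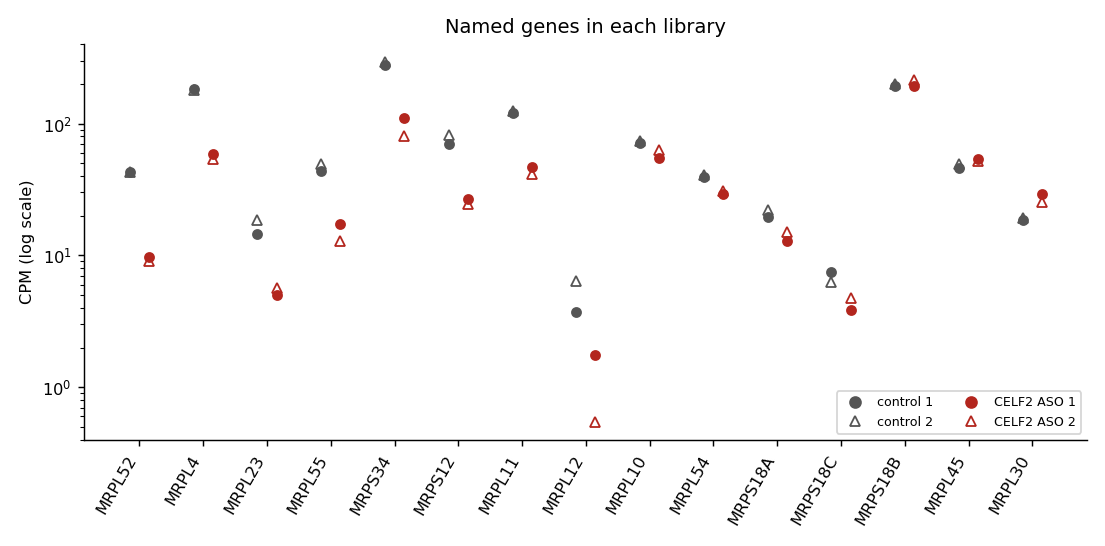
CPM on a log axis of 15 genes in each of the 4 libraries, with control libraries in grey and CELF2 ASO libraries in red. Red points lie below grey ones from MRPL52 to MRPS18C, mix with them for MRPS18B, and lie above them for MRPL45 and MRPL30.

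Both genes with a bacterial counterpart and genes specific to mitochondria were lower for the most part. Of 46 conserved genes 39 fell and 1 rose, with a median log2 fold change of -0.85, and 19 were at least 2-fold lower. Of 30 tested mitochondria-specific genes 26 fell, with a median of -0.57, and 3 were at least 2-fold lower. The difference between these classes was not tested. MRPS36 carries a family symbol but has been assigned to the 2-oxoglutarate dehydrogenase complex, and its log2 fold change was -0.99 (SE 0.15, edgeR adjusted p = 0.000949).

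**Figure D3:**
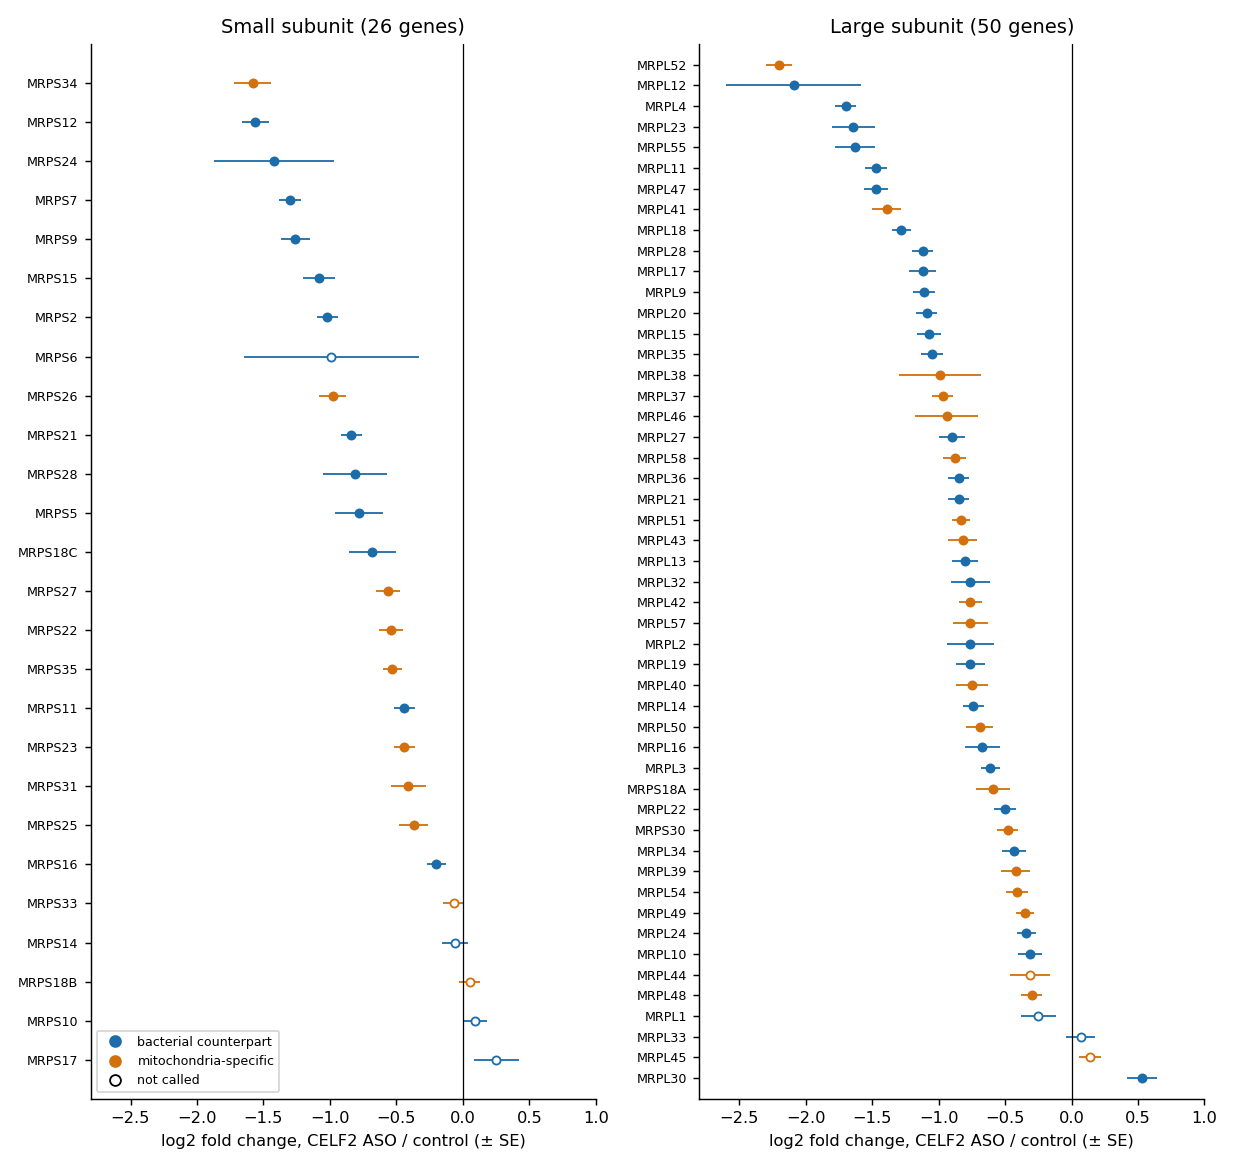
Log2 fold change with its SE for each tested gene of the small subunit (26 genes) and the large subunit (50 genes), ordered by size, in blue for genes with a bacterial counterpart and orange for mitochondria-specific ones, open where not called. Nearly all points lie left of 0, and MRPL30 is the 1 filled point to the right.

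Levels per length differed widely within the family, although the proteins are assembled into 1 particle. In the control libraries the median was 14.7 CPM per kb of exon, from 0.123 for MRPS6 to 259 for MRPS34. MRPL37, MRPS21 and MRPS18B followed at 127, 112 and 104 CPM per kb. With the CELF2 ASO, MRPS18B stood at 108 and MRPS34 at 86.8 CPM per kb. Exon length was taken over all annotated transcripts, which lowers the level per kb of a gene with long rare exons.

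Genes with GC-rich exons had the lower fold changes. Across the 77 genes the log2 fold change had a Pearson r of -0.39 and a Spearman rho of -0.36 with the GC content of the exons, as a description over genes of the same libraries. Across 12749 protein-coding genes r was -0.19 and rho -0.23. In the tercile of the family with the highest GC content all 26 genes fell, with a median of -0.98, and 45.8% of protein-coding genes in that GC range fell. In the lowest tercile 19 of 26 fell, with a median of -0.59, against 24.6% of protein-coding genes there. With an offset for GC content and length 67 genes fell and the median was -0.73.

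Annotation overlaps bear on some of these counts, since the strand setting is not given in the sources used here. Exon bases were shared with another gene by 41 of the 78 genes. Of the 37 that shared none, 32 fell, and their median log2 fold change was -0.74. Of the 66 genes with at least 1000 counts, 57 fell and 1 rose, with a median of -0.76. The antisense gene MRPL20-AS1, which overlaps MRPL20, was 18.9 and 18.9 CPM in the controls and 37.8 and 35.4 CPM with the CELF2 ASO, or 1.94-fold higher (edgeR adjusted p = 0.000116), whereas MRPL20 was 2.14-fold lower. MRPS9-AS1, named as antisense to MRPS9, had only 21 and 17 counts in the controls and 11 and 8 counts with the CELF2 ASO. It was 1.99-fold lower (log2 fold change -1.0, SE 0.35, edgeR adjusted p = 0.0449), and MRPS9 was 2.39-fold lower.

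Many of these genes start close to another gene on the opposite strand. A protein-coding neighbour started within 1000 bases of 29 of them, and in 27 pairs both genes were tested. The neighbours had a median log2 fold change of -0.09, with 10 lower and 4 higher. These values were close to the median of -0.05 and the 35.4% lower among all protein-coding genes tested. MRPS11, itself in the family, was counted among the 10 lower, as the neighbour of MRPL46. The family genes in these pairs had a median of -0.83. SLC7A7, an amino acid transporter gene that starts 59 bases from MRPL52, had a log2 fold change of -0.11 (SE 0.15, edgeR adjusted p = 0.546) beside -2.20 for MRPL52. NDUFB5, a complex I gene 36 bases from MRPL47, had -0.16 (SE 0.14, edgeR adjusted p = 0.381) beside -1.47. These neighbours did not pass the test although the ribosomal protein gene did. Some pairs fell together: TCP1, a chaperonin gene 63 bases from MRPL18, had -1.48 (edgeR adjusted p = 7.74e-06). NDUFS6, a complex I gene 34 bases from MRPL36, had -1.64 beside -0.85 (edgeR adjusted p = 9.7e-06). Opposite calls were found for MRPL27 and EME1, 6 bases apart, at -0.90 and 0.37. The same held for MRPS18C and HELQ, 76 bases apart, at -0.68 and 0.59. It also held for MRPL41 and PNPLA7, 665 bases apart, at -1.39 and 0.56. MRPL10 and LRRC46, 93 bases apart, were the last such pair, at -0.31 and 0.68. MRPL46 and MRPS11, both in the family and 34 bases apart, had -0.94 and -0.44.

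**Figure D4:**
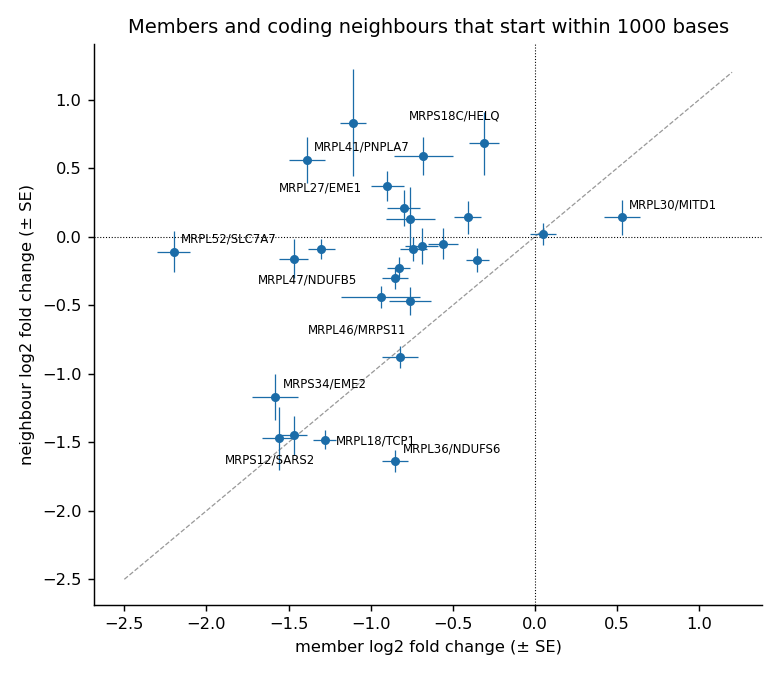
Log2 fold change of each family gene (x axis) and of the protein-coding neighbour on the opposite strand that starts within 1000 bases (y axis), with SE bars; the dashed line marks equal values. Most of the 27 pairs lie above the line, where the neighbour's value is above that of the ribosomal protein gene, as for MRPL52 with SLC7A7.

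Other genes of mitochondrial translation, taken from lists, were lower for the most part as well. For the subunits, assembly factors and translation factors below, the share lower among protein-coding genes tested was 35.4%. Of 5 subunits without an MRP symbol 4 fell. GADD45GIP1, a large subunit protein, was 165 and 176 CPM in the controls and 47.9 and 42.6 CPM with the CELF2 ASO, or 3.76-fold lower (edgeR adjusted p = 6.99e-06). AURKAIP1, DAP3 and PTCD3 had log2 fold changes of -1.22, -0.35 and -0.37, and CHCHD1 had 0.15 (edgeR adjusted p = 0.484). Of 27 tested assembly factors 18 fell and 0 rose, and their median log2 fold change was -0.50. Among them the pseudouridine synthase gene RPUSD3 had -1.41, the rRNA methyltransferase gene MRM3 -1.27 and the helicase gene DHX30 -1.14.

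Of 15 mitochondrial translation factors and mRNA-binding proteins 10 fell and 0 rose, and the median was -0.41; without control library 2, 6 fell. SLIRP, which stabilises mitochondrial mRNAs, was 81.8 and 87.1 CPM in the controls and 21.6 and 19.8 CPM with the CELF2 ASO, or 4.07-fold lower (edgeR adjusted p = 5.78e-06). Its partner LRPPRC had a log2 fold change of -0.27 (SE 0.08, edgeR adjusted p = 0.0217). TUFM, the elongation factor Tu of mitochondria, was 2.13-fold lower (edgeR adjusted p = 3.51e-05). OXA1L, which inserts new proteins into the membrane, had a log2 fold change of 0.02 (SE 0.07, edgeR adjusted p = 0.794).

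Of 9 genes that copy or transcribe mitochondrial DNA 5 fell, with a median of -0.66, against 35.4% lower among protein-coding genes tested. POLRMT, the mitochondrial RNA polymerase, was 175 and 189 CPM in the controls and 67.4 and 58.6 CPM with the CELF2 ASO, or 2.88-fold lower (edgeR adjusted p = 1.68e-05). TFAM, which packages the DNA, had a log2 fold change of -0.09 (SE 0.10, edgeR adjusted p = 0.482). Of 8 tested nuclear regulators of mitochondrial genes 4 fell, against the same 35.4%. With totals alone 3 of these regulators fell and 1 rose. The coactivators PPARGC1B and PPRC1 had log2 fold changes of -1.33 and -1.03, and GABPB1 and MYC -0.60 and -0.56. NRF1, GABPA, YY1 and ESRRA did not pass the test, with values of -0.11, 0.18, -0.16 and -0.20. PPARGC1A was not tested.

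Of 9 markers of mitochondrial content 7 fell and 1 rose, with a median of -1.01, against 35.4% lower among protein-coding genes tested. TOMM40, the import channel, had a log2 fold change of -1.75 and citrate synthase, CS, one of -0.88. HSPA9, the matrix chaperone, went the other way at 0.27 (SE 0.08, edgeR adjusted p = 0.023), and TOMM20 had 0.03 (edgeR adjusted p = 0.755). With DESeq2 and with an offset for GC content and length, 7 markers fell and 0 rose, so HSPA9 lost its call. The part of mitochondrial content in the lower levels of the ribosomal protein genes was not tested.

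The mRNAs that mitochondrial ribosomes translate were called in shares near those of all genes tested, of which 27.9% fell and 27.5% rose. Of 13 mRNAs encoded in mitochondrial DNA 5 fell, 3 rose and 5 did not pass the test, with a median log2 fold change of 0.05. MT-ND3 was 609 and 593 CPM in the controls and 339 and 396 CPM with the CELF2 ASO, and MT-ND2 had a log2 fold change of -0.55. MT-ND6 had 0.79, MT-CO1 0.57 and MT-ND5 0.40, and all 3 rose. With scaling by totals alone 2 fell and 5 rose. The ribosomal RNA MT-RNR1 was 45.7 and 6.48 CPM in control libraries 1 and 2 and 313 and 26 CPM in CELF2 ASO libraries 1 and 2. Library 1 was the higher of each pair, the groups overlapped, and the gene did not pass the test (edgeR adjusted p = 0.383).

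Among proteins of the cytosolic ribosome, taken by symbol, more genes rose than fell. Of 84 genes 36 rose and 6 fell, and their median log2 fold change was 0.21. Across all genes tested 27.5% rose and 27.9% fell. Of the 77 tested mitochondrial ribosomal protein genes 1 rose and 66 fell. With totals alone 52 rose and 2 fell, and the median was between 0.19 and 0.32 over the scalings tried. Many cytosolic ribosomal protein genes have near-identical pseudogenes, so their counts are uncertain. For the mitochondrial family, pseudogene rows held between 0.223% and 0.302% of the family's counts in a library.

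**Figure D5:**
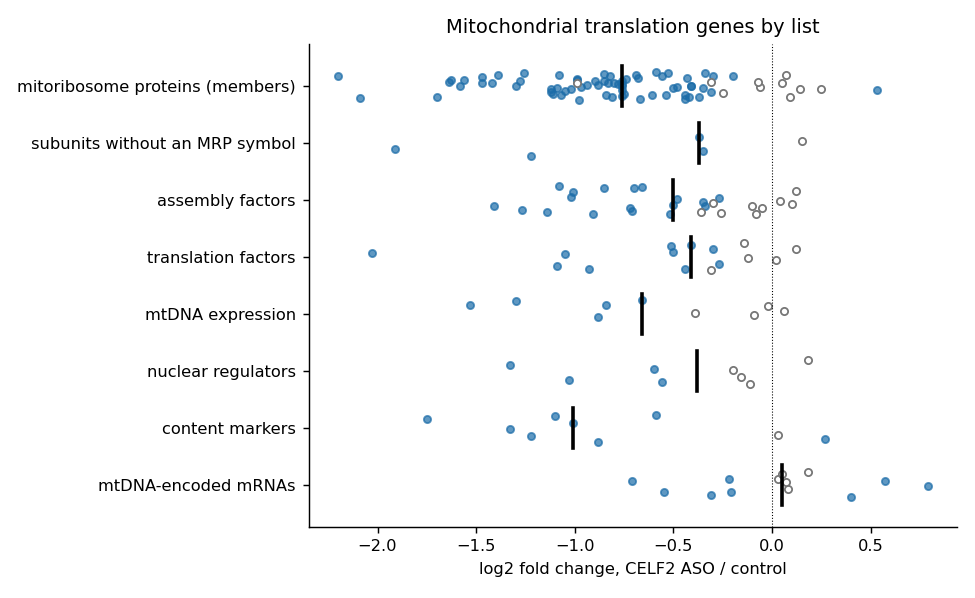
Log2 fold change of each tested gene by list, filled where called and open where not, with a black bar at the list's median. The mitochondrial ribosomal proteins sit around -0.76 and the mRNAs encoded in mitochondrial DNA around 0.05.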

How the data were processed

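RNA of 4 libraries of RPMI 8226 cells was sequenced in paired reads, per the labels' protocols. The labels conflict on library preparation, naming poly(A) selection in one place and RNase H removal of ribosomal RNA with random priming in another. The authors deposited raw read counts per gene. STAR 2.7.11b, featureCounts 2.0.8, Salmon 1.10.0, Subread, bcl2fastq and GRCh38 are listed, per the submitters' processing notes. For annotation release, strand setting and multi-mapping reads, the choice is not given in the sources used here.

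The table held 79029 rows, of which 97 are no Ensembl genes and were left out. Symbols came from a name table (61481 matched), positions and exon lengths from GENCODE 29 on GRCh38 (57356 matched). Counts were fitted in R 4.3.3 with edgeR 4.0.16: filterByExpr (minimum count 10, minimum total 15), TMM scaling, and the two-sided quasi-likelihood test over all 19511 genes, adjusted by Benjamini-Hochberg at 0.05. CPM uses TMM-adjusted totals, whose number of counts sets the precision. SE is the absolute log2 fold change over the square root of F. Replicates differed beyond sampling noise (chi-square per degree of freedom 3.38 for the control pair, 18.5 for the CELF2 ASO pair). The fit was tested on simulated data.

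Genes were named by a rule: the 8 largest falls and rises called with groups that do not overlap, the 3 smallest adjusted p in each direction, all stalk and S18 genes, and genes left out by the filter. Genes of a list could be named where it is described; LRPPRC, TFAM, CS, SDC1, IGLC2, CD14, MS4A1, CD8A, LYZ, CD3D, MRPL20-AS1, MRPS9-AS1 and the neighbours were picked with their values already seen. The family, lists and rule were chosen with earlier results of these data known. Alternatives were other scalings, filters, a replicate block, each library left out, DESeq2 1.42.0, limma-voom 3.58.1 and a GC and length offset.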

Additional observations from a re-analysis of the deposited data

How the results depend on the processing

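The count of 66 genes lower stayed within 1.5 times under all 13 alternatives, and 52 of the 66 kept their call in every one. The median log2 fold change of -0.76 was -0.79 with RLE size factors, -0.65 with totals alone, -0.82 with no filter, -0.71 with a filter at 1 CPM, -0.78 with a replicate block, -0.79 with DESeq2, -0.78 with limma-voom and -0.73 with the GC and length offset. It was -0.74 over the genes that have GC and length values, an alternative chosen after seeing the data. Leaving out 1 library gave -0.81 to -0.78. Scaling by totals moved the median of all genes from 0.04 to 0.16, and 60 genes fell.

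Among the fits that kept all 4 libraries, genes called higher numbered 2 with totals alone (MRPL30 and MRPL45) and 1 (MRPL30) with the others. The 10 translation factors lower were 6 without control library 2, and 6 to 12 over libraries left out. With the replicate block 64 genes fell, and MRPL12 and MRPS16 lost their calls. Same-numbered libraries did not deviate together (r = 0.034 over 19511 genes), so the numbers were not taken as pairs.

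Genes without a call changed sign. MRPL33 was -0.06 with the GC offset and -0.04 to 0.13 with 1 library left out. MRPS10 was -0.01 with the GC offset. MRPS14 was 0.05 with totals alone and -0.19 to 0.04 with 1 library left out. MRPS18B was -0.00 with no filter and -0.03 to 0.13 with 1 library left out. MRPS33 was 0.05 with totals alone. The cause was not tested. Fits without a library take the spread of that group from the other pair. Depth limits MRPS6 and MRPS24, which had 42 and 37 counts over the 4 libraries.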
